A study of Mus musculus with 63 samples.

Results

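The line examined here is a mouse embryonic stem cell line named G9a KO1 reconstituted, and the comparison is between its 3 cultures given 4 h of hypoxia and its 3 normoxia cultures. These are 6 of the 63 cultures of the series, taken by their titles. Both groups share the genotype: TT2 embryonic stem cells, a male line from a C57BL/6 by CBA cross, in which G9a (gene symbol Ehmt2) was knocked out and then supplied again from a transgene. The sources used here give neither the promoter of the transgene nor the number of clones behind the line. The cells grew in DMEM with fetal calf serum and LIF and were plated at 3 densities, called 2, 4 and 6 below, in units of 100000 cells per 6 cm plate. Exposures began 18 h after plating. The normoxia cultures stayed at 21% oxygen for 24 h, and the others had 20 h at 21% oxygen and then 4 h at 1% oxygen. Each group therefore holds 3 cultures that differ in density, and nothing in the labels says that they came from separate thaws or days, so the p-values measure the spread between cultures, pooled over the groups of all lines in the fit.

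When oxygen falls, prolyl hydroxylases of the EGLN family slow down, the HIF alpha subunits are no longer marked for degradation, and HIF raises the transcription of genes for glucose uptake, glycolysis, blood vessel growth and its own feedback. G9a is a histone methyltransferase that places methyl groups on lysine 9 of histone H3, a mark of silent chromatin. Jmjd1a (gene symbol Kdm3a) removes that mark, needs oxygen to do so, and is itself a known HIF target. Besides HIF, the transcription factor ATF4 drives the integrated stress response, a programme of amino acid synthesis and import genes.

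RNA of each culture was measured on 1 Illumina mouse BeadChip array, and all levels below are log2 of the normalized intensity, with a floor of 4.32 that stands for the lowest deposited value. The 6 arrays had summed intensities of 7680534 to 8355538 and 41.8% to 45.8% of probes above the floor. Of all 63 arrays 1 stood apart, G9a KO2 at 4 h and density 2 in set 7, with 79.7% of probes above the floor against 40.3% to 46.4% on the others; without it in scaling and fit 1410 genes passed below, 1386 of them shared with the 1413. Array totals moved in steps of 8 consecutive arrays in the order of deposit, here called array sets. Such a step ran through the normoxia group: densities 2 and 4 lay in set 7, whereas normoxia density 6 and all 4 h cultures lay in set 8. Across genes, normoxia densities 2 and 4 correlated at 0.996, but each correlated with normoxia density 6 at only 0.969 and 0.973. The 3 cultures at 4 h correlated with each other at 0.993 to 0.995, and with normoxia density 6 at 0.986 to 0.987. The number of genes over 1 log2 unit apart was 17 between normoxia densities 2 and 4, 561 between densities 4 and 6, and 209 between the 4 h and normoxia cultures of density 6. For this reason differences come from a limma fit over all 63 arrays with array set and density as terms. In that fit the 4 h difference rests on the normoxia culture of density 6: with both other normoxia cultures left out, 1391 genes passed, 1387 of them among the 1413 that passed with all cultures.

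All 10 embryonic stem cell markers were above the floor in the 6 cultures, with summed intensities of 45398 to 47644 in normoxia and 43434 to 43954 at 4 h. Dppa5a (means of 14.54 and 14.66) weighed most in these sums, so they do not describe the other markers. Pou5f1 and Esrrb also had higher means at 4 h. Nanog, Sox2, Zfp42, Tdgf1, Fgf4, Utf1 and Klf4 had lower ones, such as Sox2 (11.63 and 10.82) and Tdgf1 (11.30 and 10.59). These means take no account of array set. Of 9 fibroblast feeder markers, 7 were at the floor throughout (Col1a1, Col1a2, Col3a1, Pdgfrb, Postn, Dcn and Lum). The summed intensity of the 9 was 668 to 894 in normoxia and 922 to 1160 at 4 h, most of it from Acta2 (means of 9.02 and 9.61).

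G9a itself was checked first. Ehmt2 (chromosome 17) read 7.90, 8.01 and 8.68 in normoxia at densities 2, 4 and 6, and 9.24, 9.10 and 9.29 at 4 h. All 4 h cultures lay above all normoxia cultures, and the difference was 0.63 ± 0.14 log2 (SE; limma adjusted p = 0.000884), or 1.01 without the array-set term. A second Ehmt2 probe went from 7.74, 7.79 and 8.19 to 8.71, 8.85 and 8.84, and the remaining one read between the floor and 4.92. In the knockout parent G9a KO1 the first probe still read 7.49, 7.84 and 8.02 in normoxia and 8.36, 8.38 and 8.42 at 4 h. Whether that probe lies within the deleted stretch is not given in the sources used here, so its level does not check the knockout. At 4 h the reconstituted cultures were all above those of the parent, which lie in other array sets, and this difference was not tested. Kdm3a (chromosome 6), the oxygen-dependent H3K9 demethylase, read 10.76, 10.74 and 10.56 in normoxia and 11.10, 11.10 and 11.22 at 4 h. The groups were apart, with a difference of 0.58 ± 0.11 (limma adjusted p = 0.000167). On the 2 other Kdm3a probes the groups overlapped.

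Over all genes tested, 756 of 8742 (8.65%) were higher at 4 h and 657 (7.52%) were lower, 1413 (16.2%) in all, at an adjusted p under 0.05 (limma with Benjamini-Hochberg adjustment over all genes). Without the array-set term 3274 passed, 2003 higher and 1271 lower. Both fits called 644 genes higher (7.37%) and 335 lower (3.83%) in the same direction. Differences of at least 1 log2 unit were less even: 132 genes (1.51%) rose that far and 30 (0.343%) fell that far. The median difference of all genes was 0.00. The groups did not overlap for 1679 genes (19.2%) with all 4 h cultures above and for 929 (10.6%) with all below. Of these, 636 (7.28%) and 312 (3.57%) were also called in that direction.

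**Figure D1:**
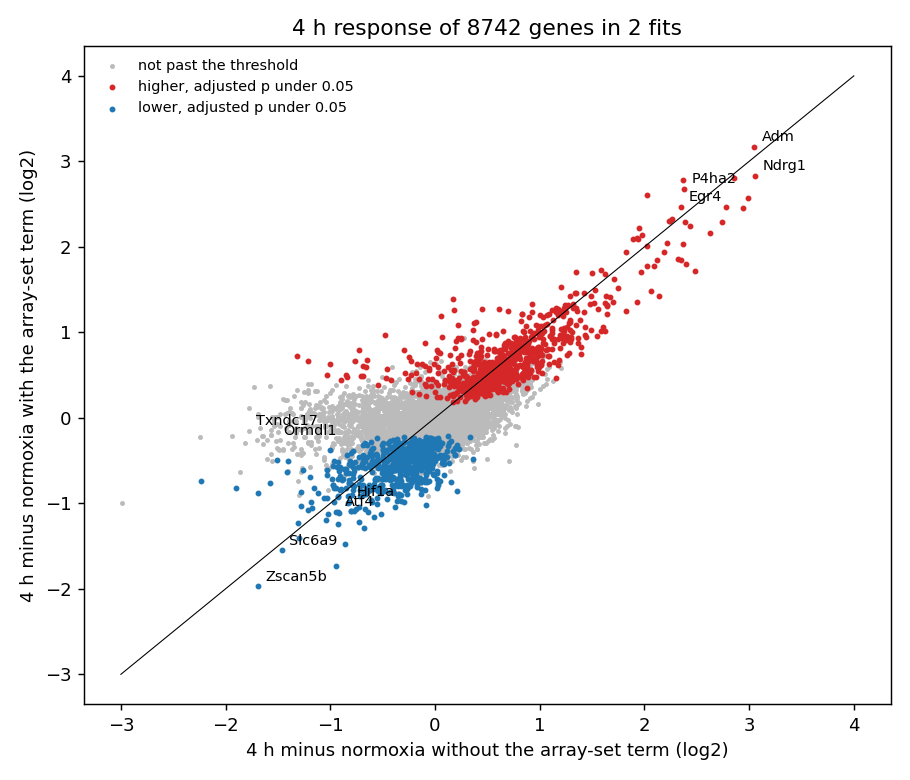
Each point is 1 of 8742 genes, with its 4 h minus normoxia difference (log2) without the array-set term on the horizontal axis and with it on the vertical axis; red and blue mark genes past an adjusted p of 0.05 with the term. The highest genes lie near the diagonal in both fits, while genes such as Txndc17 and Ormdl1, at -1.78 and -1.52 without the term, lie at -0.15 and -0.27 with it.

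The plot of the fits against each other shows which calls depend on the array set. Txndc17 read 7.07 and 6.77 in normoxia at densities 2 and 4 but 4.47 at density 6, and was at the floor in all 4 h cultures. Its difference was -1.78 without the array-set term and -0.15 ± 0.15 with it (limma adjusted p = 0.582). Ormdl1 and Spata5 had the same split between array sets and were not called with the term either. Of 62 genes at the floor in all 4 h cultures and above it in all normoxia cultures, the 5 with the largest bound include just 1, Ttc23, that passed with the term.

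The largest difference was in Adm (chromosome 7), which encodes adrenomedullin, a vasodilator peptide. Adm read 4.32, 5.90 and 5.54 in normoxia and 7.99, 8.45 and 8.46 at 4 h. The lowest 4 h culture was more than 2 log2 units above the highest normoxia culture, and the difference was 3.17 ± 0.36 (9.03-fold, limma adjusted p = 2.14e-08). Ndrg1, a stress-responsive gene known as a HIF target, went from 5.67, 7.14 and 7.30 to 9.54, 9.94 and 9.81, a difference of 2.83 ± 0.42. Flt1, a receptor for VEGF, was at or near the floor in normoxia (4.32, 4.33 and 4.72) and reached 7.00, 7.50 and 7.47, a difference of 2.80 ± 0.32. For each of these genes every 4 h culture was above every normoxia culture, as the rule for naming them required. Since the RNA is from whole cultures, fewer or more cells of a kind and a changed level per cell cannot be told apart.

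**Figure D2:**
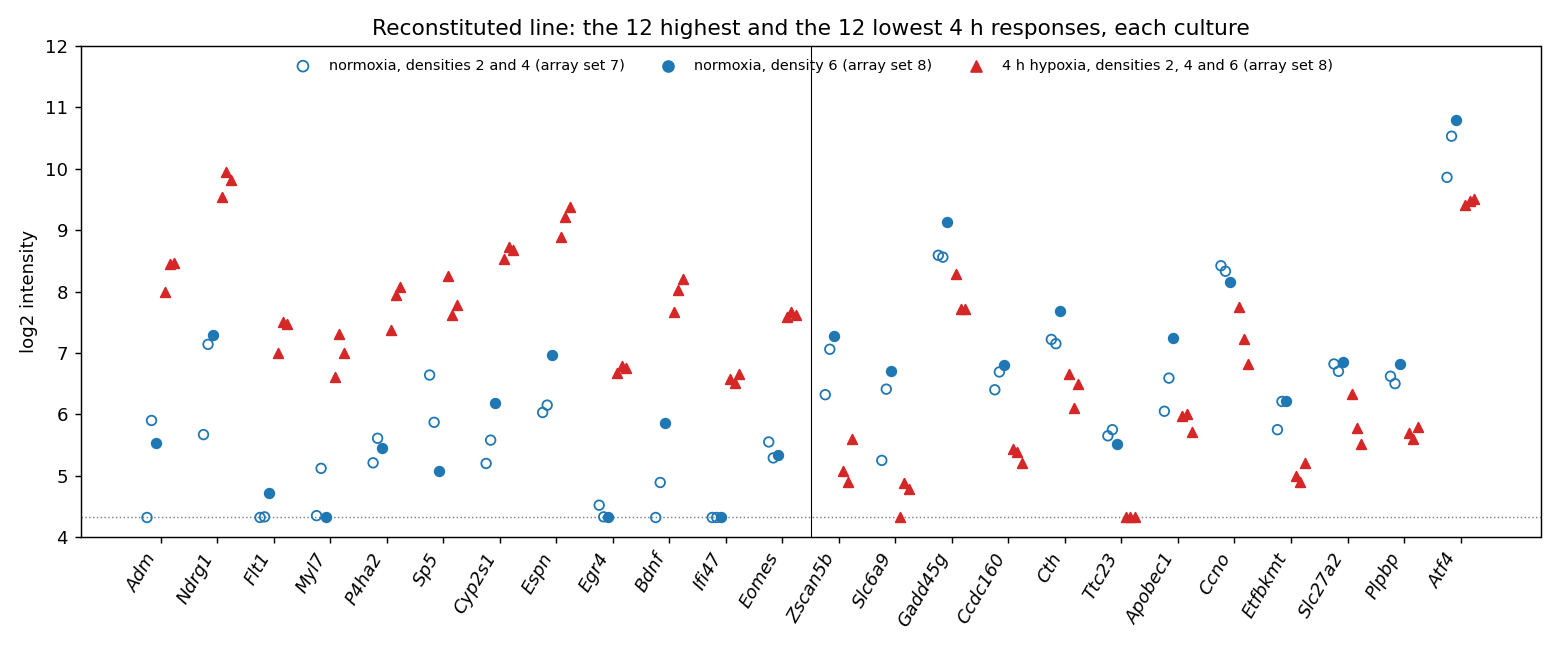
Log2 intensity of the 12 genes with the highest and the 12 with the lowest differences in each of the 6 cultures; circles are normoxia (open for array set 7, filled for set 8), triangles 4 h hypoxia, and the dotted line the floor of 4.32. The triangles lie above all circles for the first 12 genes and below all circles for the last 12.

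Genes of oxygen sensing and HIF feedback were more often higher than lower. Of 18 tested genes in a list of the HIF pathway and its feedback, 10 were higher and 2 lower, with a median difference of 0.58 against 0.00 over all genes; 8 and 1 of them passed both with and without the array-set term, and 6 and 1 when cultures were paired by line and density. Egln3, a prolyl hydroxylase that marks HIF alpha for degradation, read 7.02, 8.60 and 9.09 in normoxia and 10.73, 10.94 and 10.92 at 4 h, a difference of 2.16 ± 0.45 (limma adjusted p = 0.00054). Egln1, the main prolyl hydroxylase of this kind, stood at the floor in each normoxia culture and read 5.92, 6.56 and 6.43 at 4 h, at least 3.86-fold higher. A bound of this kind sets the 4 h mean against the lowest signal above the floor on each normoxia array. Hif1a, the oxygen-regulated subunit itself, moved the other way, from 6.27, 6.51 and 6.56 to 5.47, 5.62 and 5.78, and fell by 0.98 on the log2 scale. Egln1 and Egln3 thus moved in the opposite direction to Hif1a, with no overlap between groups for any of these genes. Egln2, another hydroxylase of the family, and Epas1, another alpha subunit, were tested too and are not described here. Bhlhe40, a transcriptional repressor and clock-linked factor, had a difference of 1.72 ± 0.52, and the nuclear receptor Rora one of 1.68 ± 0.21. Bhlhe40 was not called when cultures were so paired (difference 1.25, limma adjusted p = 0.204). Cited4 was the second lower gene (-0.45), reading 4.32 to 4.82 in the 6 cultures and not called without the array-set term. Vhl and Siah2, both parts of ubiquitin ligases that act in the pathway, were called (0.50 and 0.67) only with the term.

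The prolyl and lysyl hydroxylases of collagen use oxygen as well. In that list 4 of 11 tested genes were higher and 0 lower. P4ha2, a collagen prolyl hydroxylase subunit, read 5.21, 5.61 and 5.45 in normoxia and 7.37, 7.95 and 8.08 at 4 h, a difference of 2.68 ± 0.24. Plod2, a lysyl hydroxylase, went from 6.32, 6.71 and 7.06 to 8.69, 8.67 and 8.63, with a difference of 1.70 ± 0.14. In both, the normoxia and 4 h cultures were over 1 log2 unit apart at every density. P4ha1 rose from the floor in all normoxia cultures to 5.20, 5.08 and 4.95, and P4hb, their shared beta subunit, rose by 0.30 ± 0.08.

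HIF binds DNA at the letters ACGTG or GCGTG, so the promoters of 5 hydroxylase, demethylase and vasoactive genes that rose are shown here, from RefSeq (GRCm38.p6), each from 250 bases before to 50 after the first listed start, 5′ to 3′ on the strand of the gene. Capitals mark these letters on either strand. They lie at chr7:110627407-110627706 (plus strand), chr8:124949205-124949504 (minus), chr12:54203825-54204124 (minus), chr11:54100674-54100973 (plus) and chr6:71632868-71633167 (minus).
Adm: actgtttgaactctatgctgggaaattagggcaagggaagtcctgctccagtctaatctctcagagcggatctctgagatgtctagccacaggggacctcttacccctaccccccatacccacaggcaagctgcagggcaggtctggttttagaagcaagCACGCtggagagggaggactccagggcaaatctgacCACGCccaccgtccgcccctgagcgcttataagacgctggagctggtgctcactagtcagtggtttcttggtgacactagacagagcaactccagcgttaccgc
Egln1: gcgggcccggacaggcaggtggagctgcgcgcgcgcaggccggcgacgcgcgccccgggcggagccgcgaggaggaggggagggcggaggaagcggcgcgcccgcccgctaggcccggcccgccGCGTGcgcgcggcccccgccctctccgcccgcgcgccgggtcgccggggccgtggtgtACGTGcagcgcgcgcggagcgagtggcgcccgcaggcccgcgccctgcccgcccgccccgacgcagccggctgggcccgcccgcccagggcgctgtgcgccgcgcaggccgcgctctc
Egln3: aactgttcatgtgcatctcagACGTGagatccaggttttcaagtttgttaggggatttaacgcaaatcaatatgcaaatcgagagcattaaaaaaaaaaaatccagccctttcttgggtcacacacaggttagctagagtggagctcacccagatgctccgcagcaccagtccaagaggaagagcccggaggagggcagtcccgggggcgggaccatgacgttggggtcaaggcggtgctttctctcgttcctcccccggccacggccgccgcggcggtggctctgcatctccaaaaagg
P4ha2: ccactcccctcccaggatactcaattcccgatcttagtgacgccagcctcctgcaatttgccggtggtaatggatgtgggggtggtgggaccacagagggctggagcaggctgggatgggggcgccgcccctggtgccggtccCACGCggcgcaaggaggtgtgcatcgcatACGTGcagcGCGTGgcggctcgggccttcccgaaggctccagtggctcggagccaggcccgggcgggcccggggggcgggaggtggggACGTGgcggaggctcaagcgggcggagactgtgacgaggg
Kdm3a: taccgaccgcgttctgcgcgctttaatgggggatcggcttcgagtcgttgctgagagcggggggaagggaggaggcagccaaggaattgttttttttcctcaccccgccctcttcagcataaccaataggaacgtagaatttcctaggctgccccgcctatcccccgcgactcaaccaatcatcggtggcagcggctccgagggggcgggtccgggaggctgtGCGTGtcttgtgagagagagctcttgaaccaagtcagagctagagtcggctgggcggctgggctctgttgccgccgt

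These windows held 2, 2, 1, 4 and 1 matches in that order. Of the 38 higher members of 6 lists on oxygen and energy (HIF pathway, glycolysis, glucose and lactate, collagen hydroxylases, mitochondria in hypoxia, vasoactive signals), 30 had a promoter in the table, and 24 of these (80%) held ACGTG or GCGTG. The share was 64.1% among the 7155 tested genes with a promoter, 68.1% among the 602 genes called higher, 61.8% among the 536 called lower and 43.8% among all 27025 genes in the table. ACGTG is also part of CACGTG, which other factors bind and which 10.4% of the tested genes held. A match describes the letters in this window and shows no binding.

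Glucose handling rose at several steps. Slc2a1 and Slc2a3, the main glucose importers of these cells, went from 11.82, 12.16 and 12.41 to 13.32, 13.31 and 13.45 and from 11.79, 12.02 and 12.42 to 13.19, 13.32 and 13.33. The differences were 1.05 ± 0.12 and 0.97 ± 0.09, and both genes were apart between groups. The lactate exporter Slc16a3 rose from the floor in normoxia to 5.27, 5.62 and 6.09. Pdk1, a kinase that inhibits pyruvate dehydrogenase, rose by 0.54 ± 0.15, but was not called when cultures were paired (0.41, limma adjusted p = 0.117). In this list 4 of 6 tested genes were higher and 0 lower.

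Among 15 tested glycolysis genes 7 were higher, all of them in both fits, and 1 was lower, with a median difference of 0.44; 5 were higher and 0 lower when cultures were paired. Hk2, a hexokinase, read 11.46, 11.69 and 12.20 in normoxia and 12.96, 13.08 and 13.07 at 4 h, a difference of 0.91 ± 0.10 (limma adjusted p = 1.45e-08). Eno2, an enolase, had the largest difference, 1.43 ± 0.28, from 4.92, 5.96 and 7.21 to 7.66, 8.38 and 8.47. Pfkl, Tpi1, Aldoa and Ldha rose by 0.46 to 0.62, and Aldoc (0.59) lost its call when cultures were paired (limma adjusted p = 0.305). The lower gene was Pgk1 (-0.39), a known HIF target whose probe here read between 4.32 and 4.88 in every culture; it was not called without the array-set term.

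Glycogen and mitochondrial genes followed. Pgm1, which interconverts glucose phosphates, rose by 1.70 ± 0.26, Ppp1r3c, which brings a phosphatase to glycogen, by 1.48 ± 0.21 and Pygl, a glycogen phosphorylase, by 1.32 ± 0.19. These were the 3 called genes of 8 tested, and none was lower. Higd1a, a small mitochondrial protein induced by hypoxia, went from 5.13, 5.20 and 4.75 to 6.91, 7.12 and 6.90, a difference of 2.22 ± 0.23. Bnip3 (1.28), Fam162a (0.87) and Bnip3l (0.81), of which Bnip3 and Bnip3l act in the removal of mitochondria, also rose. By contrast, 0 of 55 tested subunits of oxidative phosphorylation were higher and 1 was lower with the array-set term, Cyc1 (-0.34), which was not called without it. Without the term 10 were higher and 3 lower.

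Vasoactive and angiogenic signals were among the most responsive groups, with 9 of 18 tested genes higher in both fits, 0 lower and a median of 0.72. Beside Adm and Flt1, Bdnf, a neurotrophin, rose from 4.32, 4.89 and 5.86 to 7.67, 8.03 and 8.21 (2.45 ± 0.24). Edn2, an endothelin, was at the floor in every normoxia culture and read 5.64, 6.41 and 6.59 at 4 h, at least 3.63-fold higher. Vegfa, the classical angiogenic HIF target, read 6.27, 7.88 and 8.18 in normoxia and 8.40, 8.87 and 9.32 at 4 h, a difference of 1.24 ± 0.36 (limma adjusted p = 0.0137). Its normoxia cultures spread over nearly 2 log2 units, and the lowest 4 h culture was barely above the highest of them.

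**Figure D3:**
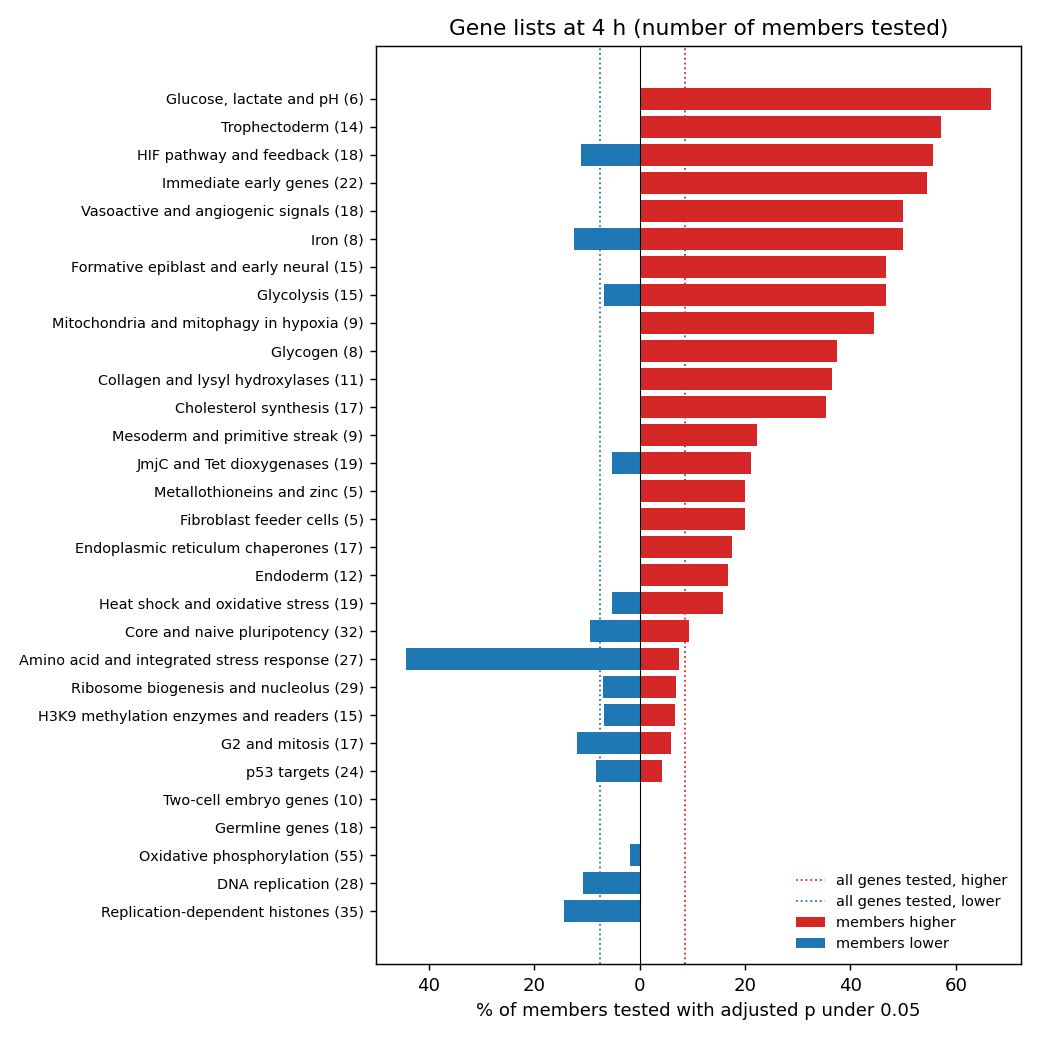
Share of the tested members of each list (number in brackets) that were higher (red, to the right) or lower (blue, to the left) at 4 h with an adjusted p under 0.05; dotted lines give the shares of all genes tested, 8.65% higher and 7.52% lower. Glucose, trophectoderm, HIF and immediate early lists reach over 50% higher, and the stress response list has the largest share lower, 12 of 27.

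In the opposite direction, many genes of amino acid supply and the integrated stress response fell. Of 27 tested members 12 were lower and 2 higher, with a median of -0.50, and 6 of the lower ones and both higher ones passed in both fits. Atf4, the transcription factor at the head of the response, read 9.86, 10.53 and 10.79 in normoxia and 9.41, 9.48 and 9.50 at 4 h, and fell by 1.10 on the log2 scale (SE 0.21, limma adjusted p = 0.000157). Slc6a9, a glycine transporter, went from 5.25, 6.41 and 6.71 to 4.32, 4.88 and 4.79 (-1.55 ± 0.36). Cth, which makes cysteine, went from 7.22, 7.15 and 7.69 to 6.66, 6.10 and 6.50 (-1.24 ± 0.26). In these 3 genes no 4 h culture reached the lowest normoxia culture. Trib3, a pseudokinase that dampens the response, was lower by the fit (-1.13) but its groups overlapped: 4.64, 5.54 and 6.49 in normoxia and 5.07, 4.91 and 5.14 at 4 h. It was not called without the array-set term, and the same held for Nupr1 (-1.10), Ddit3 (-1.02), Phgdh (-0.71), Aars (-0.58) and Sesn2 (-0.50, and 0.00 without the term). Ddit3 went from 4.32, 5.36 and 6.98 to 4.72, 5.57 and 6.10, lower at density 6 alone. Nupr1 went from 7.25, 8.41 and 9.56 to 7.12, 7.87 and 8.31, and its groups overlapped too. The fitted falls of both rest on the normoxia culture of density 6. The 2 higher members, Vldlr (1.35) and Stc2 (1.02), are a lipoprotein receptor and a secreted glycoprotein, and Stc2 is also in the HIF list. When cultures were paired, 10 members were lower and 0 higher, Vldlr and Sesn2 among the lost calls (limma adjusted p = 0.158 and 0.0688). At 24 h of hypoxia in the same line, which shares the normoxia cultures, 4 were lower and 1 higher, and Atf4 and Slc6a9 differed by -0.42 and -0.25. In the wild-type lines at 4 h 18 of the 27 were lower and 3 higher, with a median of -0.25. In those lines 36.6% of all genes were called in either direction. The 24 h fit called 931 of all genes higher (10.6%) and 911 lower (10.4%).

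ATF4 and its partners bind composite sites that contain TGATGCAA. Of the 11 lower members with a promoter in the table, 2 (18.2%) held these letters on either strand. The share was 0.559% among the tested genes and 1.12% among the 536 called lower. The list was drawn up as genes of this response, and its members that were not lower were not counted. A match shows no binding. The 2 genes were Nupr1 (chr7:126625421-126625720, minus strand), a chromatin-bound stress protein, and Aars (chr8:111033592-111033891, plus strand), the alanyl-tRNA synthetase. Neither was called without the array-set term. Both are shown with the match in capitals.
Nupr1: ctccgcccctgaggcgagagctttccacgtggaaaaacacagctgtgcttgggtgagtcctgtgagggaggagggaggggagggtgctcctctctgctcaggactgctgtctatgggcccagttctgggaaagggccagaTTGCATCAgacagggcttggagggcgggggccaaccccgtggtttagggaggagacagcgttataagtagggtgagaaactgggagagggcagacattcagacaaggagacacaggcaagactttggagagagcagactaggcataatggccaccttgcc
Aars: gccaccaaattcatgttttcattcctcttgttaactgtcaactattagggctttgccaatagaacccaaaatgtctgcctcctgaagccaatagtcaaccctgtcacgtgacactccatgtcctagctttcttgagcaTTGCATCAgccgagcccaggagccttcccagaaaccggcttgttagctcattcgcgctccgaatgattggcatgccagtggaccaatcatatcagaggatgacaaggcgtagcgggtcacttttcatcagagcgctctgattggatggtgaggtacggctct

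In normoxia several of these genes had higher levels at higher seeding density. In the reconstituted line Egln3 read 7.02 at density 2 and 9.09 at density 6 in normoxia, Bhlhe40 6.78 and 9.50, and Vegfa 6.27 and 8.18. At 4 h Egln3 spanned 10.73 to 10.94 and Bhlhe40 10.78 to 10.84, so the gap to normoxia was smaller at density 6. Normoxia densities 4 and 6 of this line lie on either side of the step between array sets. In the wild-type lines, whose normoxia cultures each lie in 1 array set, Egln3 had the same order: it read 6.93, 7.75 and 8.65 in WT1 and 7.45, 7.83 and 8.43 in WT2 at densities 2, 4 and 6. Nupr1 and Chac1 of the stress response had this order too, whereas Cth did not (7.22, 7.15 and 7.69). In normoxia Nupr1 read 7.25, 8.41 and 9.56 in the reconstituted line and 7.24, 8.36 and 9.25 in WT1. Chac1, a glutathione-degrading ATF4 target, read 8.62, 10.06 and 10.75 in the reconstituted line and 7.66, 9.24 and 9.88 in WT1. Chac1 read 8.27, 9.21 and 9.49 at 4 h, lower than normoxia at each density, but its difference of -0.99 ± 0.40 did not pass (limma adjusted p = 0.0872). No test of density was made here.

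**Figure D4:**
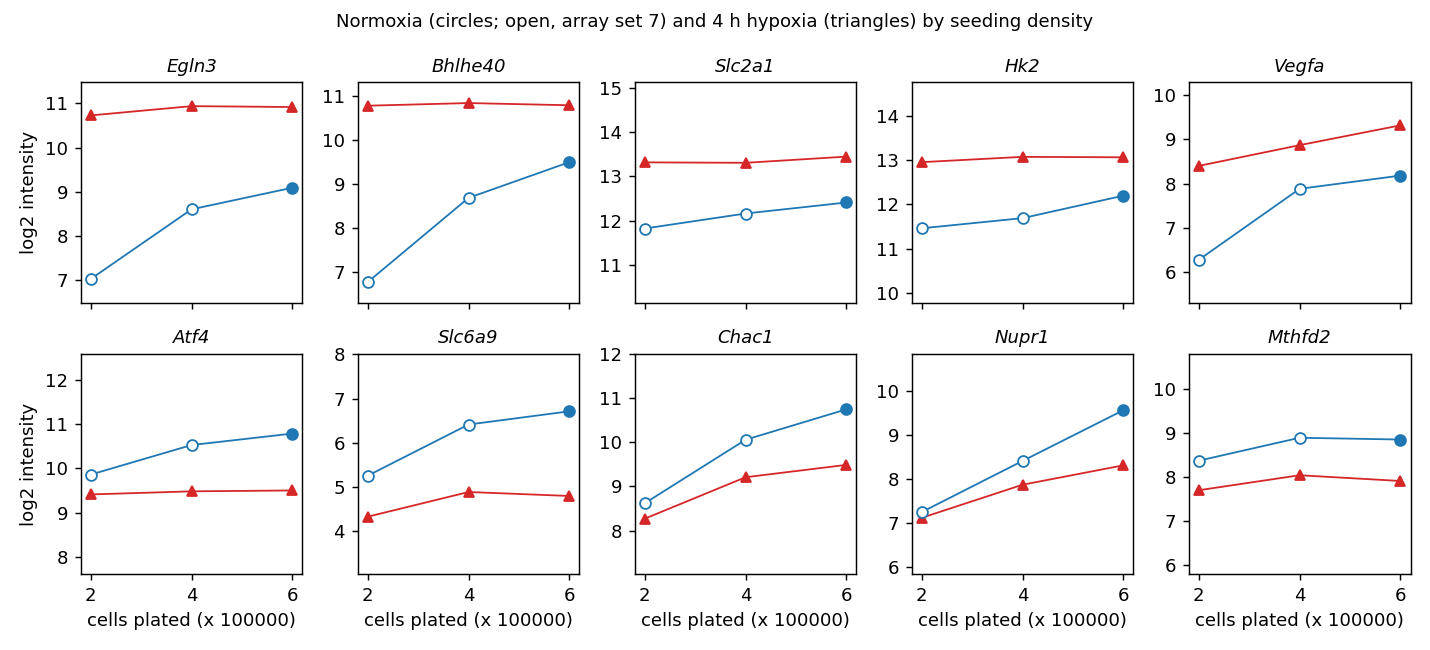
Log2 intensity of 10 genes against cells plated, for normoxia (blue circles, open for array set 7) and 4 h hypoxia (red triangles), with the same span of the axis in all panels. In the upper row the 4 h cultures lie above normoxia and the gap is widest at density 2 for Egln3 and Bhlhe40; in the lower row they lie below and the gap is widest at density 6 for Atf4, Chac1 and Nupr1.

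Immediate early genes respond to growth factor and stress signals within minutes to hours. Of 22 tested 12 were higher, 11 of them in both fits, and 0 lower, with a median of 0.75. Egr4, a zinc finger factor, went from 4.52, 4.33 and 4.32 to 6.68, 6.79 and 6.76 (2.47 ± 0.17, limma adjusted p = 5.38e-14). Fos went from 5.34, 5.21 and 5.78 to 7.08, 7.23 and 6.89 (1.34 ± 0.23). Id1, an inhibitor of differentiation factors that BMP signals induce, rose by 1.28 ± 0.29. The groups were apart in each of these 3 genes. Ier3 had a difference of 1.80 ± 0.46 that was lost when cultures were paired (1.41, limma adjusted p = 0.0868). At 24 h 8 of the 22 were higher, and Egr4 differed from normoxia by only 0.05.

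Of the JmjC dioxygenases, 4 of 19 tested genes were higher and 1 was lower, in both fits. These were 21.1% and 5.26%, against 8.65% and 7.52% of all genes. No Tet gene of that list was tested. Kdm4b, an H3K9 demethylase, read 7.84, 7.85 and 8.65 in normoxia and 9.56, 9.92 and 9.77 at 4 h, a difference of 1.22 ± 0.14, with the groups apart. Kdm4c, of the same family, rose by 0.65 ± 0.11 and Jmjd6 by 0.32 ± 0.10, and Hspbap1 fell by 0.39. Among 15 tested genes of H3K9 methylation 1 was higher, Ehmt2 itself, and 1 lower, Ehmt1 (6.67% each way, near the 8.65% and 7.52% of all genes). Ehmt1, the partner of G9a in its complex, read 9.43, 9.34 and 9.71 in normoxia and 9.21, 9.37 and 9.07 at 4 h, so the groups overlapped, and its difference of -0.51 was called only with the array-set term. None of 18 tested germline genes and none of 10 tested two-cell embryo genes, classes that G9a is known to help silence, was called in either direction by limma with the array-set term; at an unadjusted p under 0.05 there were 2 and 0, and without the array-set term 2 and 1 were called.

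Of 32 tested core and naive pluripotency genes 3 were higher and 3 lower (9.38% each way, near the 8.65% and 7.52% of all genes), and 1 and 3 when cultures were paired. Pou5f1 read 11.87, 11.97 and 11.85 in normoxia and 12.03, 11.90 and 11.96 at 4 h, a difference of 0.13 ± 0.10 that did not pass. Nanog went from 12.59, 12.45 and 12.15 to 11.96, 11.79 and 11.85, apart between groups but not past the threshold with the array-set term (-0.36 ± 0.15, limma adjusted p = 0.11). Without the term, 5 members were higher and 11 lower. Fgf4, a growth factor that drives exit from the naive state, fell by 1.09, and Lefty1, an inhibitor of Nodal, fell by 0.86, in both fits. Socs3, a feedback inhibitor of LIF signalling, rose by 0.95 ± 0.14. The call of Lifr, the LIF receptor (-0.50), was lost without the array-set term and when cultures were paired (limma adjusted p = 0.099).

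Of genes of later stages, several were called higher and none in the next 2 lists lower. Among 15 tested formative and early neural genes 7 were higher and 0 lower, and among 14 tested trophectoderm genes 8 were higher and 0 lower. All but Pim2 and Id2 of these were also called without the array-set term, and 5 and 6 were higher when cultures were paired. Fgf5, a marker of the primed epiblast, went from 5.20, 5.10 and 5.44 to 6.51, 6.57 and 6.75 (1.25 ± 0.24). Eomes, a T-box factor of trophoblast and primitive streak, went from 5.55, 5.29 and 5.34 to 7.59, 7.67 and 7.62 (2.30 ± 0.30). Krt19, a keratin, went from 4.32, 4.32 and 4.90 to 6.54, 7.10 and 7.07 (2.29 ± 0.29). All 3 were apart between groups. Pim2 (1.12) and Lef1 (0.87) in the formative list lost their calls when cultures were paired (limma adjusted p = 0.0515 and 0.102). Of short marker lists of other lineages, some genes were at the floor in all 6 cultures: Sox1 and Pax6 of 5 early neural, Mixl1 and Mesp1 of 5 mesoderm, Sox17 and Foxa2 of 6 primitive endoderm and Elf5 of 6 trophectoderm markers. Tfap2c (means of 10.36 in normoxia and 10.15 at 4 h), Krt7 (4.57 and 4.32), Gata4 (4.48 and 4.32) and Fgf8 (4.46 and 4.40) had lower means at 4 h. The rest had higher means, among them Otx2 (9.72 and 10.72), Evx1 (4.44 and 5.37), Sox7 (4.32 and 5.19), Cdx2 (4.32 and 4.84) and Gata6 (4.32 and 4.70). The summed intensity of the early neural markers, most of it from Otx2, was 806 to 1260 in normoxia and 1691 to 2037 at 4 h. For mesoderm it was 121 to 133 and 293 to 316, with most of it at 4 h from Eomes. For primitive endoderm it was 153 to 178 and 180 to 190. For trophectoderm it was 1608 to 1774 and 1608 to 1742, most of it from Tfap2c. Their part in the results was not tested.

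In the mesoderm list 2 of 9 tested genes were higher (Eomes and Bmp4) and 0 lower, or 3 and 1 when cultures were paired, and in the endoderm list 2 of 12 were higher (Sox7, from the floor in normoxia, and Col4a1) and 0 lower. Of 5 tested feeder cell genes 1, Twist1, was higher (0.62), or 2 when cultures were paired. Genes called higher made up 22.2% of the mesoderm, 16.7% of the endoderm and 20% of the feeder list, against 8.65% of all genes.

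Part of the sterol synthesis genes rose. Of 17 tested, 6 were higher in both fits and 0 lower, with a median of 0.25. Stard4, a sterol transporter, went from 7.89, 8.03 and 7.73 to 8.56, 8.77 and 8.84 (1.01 ± 0.14), apart between groups. Msmo1, a methylsterol monooxygenase, rose by 0.83 ± 0.15 and Lss, the synthase that closes the sterol rings, by 0.69 ± 0.11. Srebf2, the factor that controls the pathway (0.56), missed the threshold when cultures were paired (limma adjusted p = 0.0523).

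Iron and oxidative stress genes shared 1 leading member, Hmox1. This heme oxygenase went from 8.15, 8.05 and 7.45 to a mean of 9.09 ± 0.08 (SD, n = 3), a difference of 1.53 ± 0.20, apart between groups. The transferrin receptor Tfrc rose by 0.54 ± 0.10 and the iron exporter Slc40a1 by 0.76 ± 0.19. Of 8 tested iron genes 4 (50%) were higher and 1 (12.5%) lower, of which 3 and 0 passed in both fits. Aco1 (0.76) was lost when cultures were paired (limma adjusted p = 0.136). Of 19 heat shock and oxidative stress genes 3 (15.8%) were higher (Hmox1, Srxn1 and Hsph1) and 1 (5.26%) lower (Hspb1, -0.61). Over all genes 8.65% were higher and 7.52% lower. The metallothionein Mt1 rose from 13.20, 13.45 and 13.83 to 14.41, 14.51 and 14.74 (0.79 ± 0.19), the 1 call (20%) among 5 tested genes of that list.

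Among 28 tested DNA replication genes 3 (10.7%, against 7.52% of all genes) were lower in both fits (Ccne1, Mcm7 and Mcm10, which fell by 0.38 to 0.51) and 0 higher; without the array-set term 7 were higher and 11 lower. Of 17 tested mitosis genes (5.88% higher and 11.8% lower) Kif23 was higher (0.98 ± 0.13) and Aurka and Plk1 were lower (-0.46 and -0.44). Aurka was at 0.05 without the array-set term, and Plk1 missed the threshold when cultures were paired (limma adjusted p = 0.052). Of 35 tested replication-dependent histone genes 5 were lower, but 0 of these calls held in both fits or when cultures were paired. H2ac12, H2ac20, H2ac15 and H2ac8 then had limma adjusted p of 0.276, 0.148, 0.184 and 0.242. Histone genes are near-identical copies, so their probes may read each other. Of 24 tested p53 targets (4.17% higher and 8.33% lower) 1 was higher (Plk3, 0.37) and 2 lower, Bbc3 (-0.93 ± 0.14), a promoter of cell death, and Sesn2. Of 29 ribosome biogenesis genes (6.9% each way) 2 were higher (Ubtf and Pes1) and 2 lower (Utp4, with the array-set term alone, and Bop1, with a limma adjusted p of 0.0506 when cultures were paired). For all genes these shares were 8.65% higher and 7.52% lower. Of 17 endoplasmic reticulum chaperones 3 were higher by 0.30 to 0.44 (Pdia6, Hsp90b1 and P4hb) and 0 lower.

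The remaining genes with the highest differences were Myl7, Sp5, Cyp2s1, Espn and Ifi47. Myl7, an atrial myosin light chain, went from 4.35, 5.12 and 4.32 to 6.60, 7.31 and 7.00. Sp5, a transcription factor induced by Wnt signals, went from 6.64, 5.87 and 5.07 to 8.25, 7.62 and 7.78. Cyp2s1, a cytochrome P450, went from 5.20, 5.58 and 6.18 to 8.53, 8.72 and 8.67. Their differences were 2.78 ± 0.26, 2.61 ± 0.32 and 2.57 ± 0.21. Espn, an actin-bundling protein, rose by 2.47 ± 0.19, and the interferon-inducible GTPase Ifi47 rose from the floor in normoxia to 6.58, 6.51 and 6.65, at least 4.68-fold. H2-Ab1, a class II histocompatibility chain, and Spink10 also came up from the floor, at least 3.74-fold and 3.73-fold.

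Among the genes with the lowest differences, Zscan5b, a zinc finger gene, went from 6.32, 7.06 and 7.28 to 5.08, 4.90 and 5.60 (-1.97 ± 0.36, limma adjusted p = 0.000104). Gadd45g, a growth arrest and DNA damage gene, went from 8.59, 8.56 and 9.13 to 8.29, 7.71 and 7.71 (-1.47 ± 0.27). Ttc23 went from 5.65, 5.75 and 5.51 to the floor in all 4 h cultures, at least 2.32-fold lower. In all of these the groups were apart. Ccdc160 (-1.41), Apobec1 (-1.22), Etfbkmt (-1.13), Slc27a2 (-1.11), a fatty acid transporter and ligase, and Plpbp (-1.10) also fell. Ccno (-1.20) was at the threshold when cultures were paired (limma adjusted p = 0.05).

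Near the threshold, the last genes called were Ufc1 (-0.24), Cers2 (-0.26) and Tmem109 (0.24), with adjusted p of 0.0495, 0.0497 and 0.0498, and the next were Acsbg2 (-0.39), Akap10 (-0.34) and Acrbp (-0.72), each with 0.0501 (limma). Cers2 had an adjusted p of 0.181 when cultures were paired.

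The response of the reconstituted line was then set against that of wild type. The wild-type comparator is WT1 and WT2, TT2 lines with no knockout, with 3 cultures per exposure each. The Y-linked Eif2s3y read 8.25 to 8.36 in WT1 normoxia cultures and 4.32 in all 3 of WT2, which the labels also call male. In wild type 3202 of the 8742 genes (36.6%) were called. Of the 1413 genes called in the reconstituted line, 1058 (74.9%, or 33% of the wild-type calls) were called in the same direction in wild type, 5 in the opposite direction and 350 not. An interaction contrast in the same limma fit found that 82 genes (0.938%) differed in response, 39 (0.446%) with a higher difference in the reconstituted line and 43 (0.492%) with a lower one. Against WT1 alone 51 differed, 43 of them among the 82, and when cultures were paired 84 differed, 51 of them among the 82. Adm, Ndrg1 and Egln3 responded by 3.53, 2.87 and 2.48 in wild type and by 3.17, 2.83 and 2.16 here.

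Among 5972 genes with a probe above the floor on all 63 arrays, limma found 0 that differed from wild type after adjustment, with 581 at an unadjusted p under 0.05. Myl7 had the largest excess, 1.44: it responded by 1.34 in wild type, where it went from the floor to 5.17, 6.00 and 5.77 in WT1 and from 5.13, 4.90 and 5.51 to 6.02, 6.77 and 6.79 in WT2. Bnip3 was at the floor in all normoxia and 4 h cultures of both wild-type lines, while in the reconstituted line it went from 4.32, 4.70 and 4.59 to 5.71, 5.86 and 5.75. In the parent G9a KO1 Bnip3 also rose, from 4.32, 4.32 and 4.79 to 5.99, 6.75 and 7.12.

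Against the parent G9a KO1, labelled a G9a knockout, 57 genes (0.652%) differed in response, 24 (0.275%) higher and 33 (0.377%) lower in the reconstituted line. The parent's 4 h cultures of densities 4 and 6 lay in another array set than its normoxia cultures, so its response rests on the 4 h culture of density 2, as that of the reconstituted line rests on the normoxia culture of density 6. The spread in this contrast comes from the other groups of the fit, and the single cultures are assumed to vary like them. When cultures were paired 56 genes differed, 32 of them among the 57. Of the 5972 genes above the floor on all arrays 2 differed, Pdcl and Plk3, with 507 at an unadjusted p under 0.05. Isl1, a LIM homeobox factor, went from 4.32, 4.34 and 4.88 to 6.62, 6.83 and 6.67 in the reconstituted line, but from 4.32 in every culture to 4.34, 4.48 and 4.58 in the parent. In WT1 Isl1 went from 4.32, 4.54 and 4.78 to 6.11, 6.61 and 6.74. The difference of response from the parent was 1.80. Egln1 rose in both, to 5.92, 6.56 and 6.43 here and to 4.88, 5.42 and 5.49 in the parent, a difference of response of 1.42.

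Other genes responded in the parent and were not called here. Klb, a co-receptor for FGF21, was at the floor in all 6 reconstituted cultures and in all normoxia and 4 h cultures of both wild-type lines, and in the parent read 5.53, 6.29 and 6.81 in normoxia and 7.54, 7.54 and 7.71 at 4 h. Nrxn3, a neurexin of synapses, was likewise at the floor in all 6 reconstituted cultures, and in the parent went from the floor to 5.52, 6.06 and 6.21. Pdcl, a phosducin-like protein, fell in the parent from 6.50, 6.63 and 7.08 to 4.99, 5.30 and 5.85, and read 6.88, 6.92 and 7.48 in normoxia and 7.02, 7.16 and 7.18 at 4 h here. The 3 genes were picked for large differences of response between these lines, so their separation at 4 h follows from that choice. The 4 h cultures of the lines lie in different array sets, and Klb was apart in normoxia as well.

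**Figure D5:**
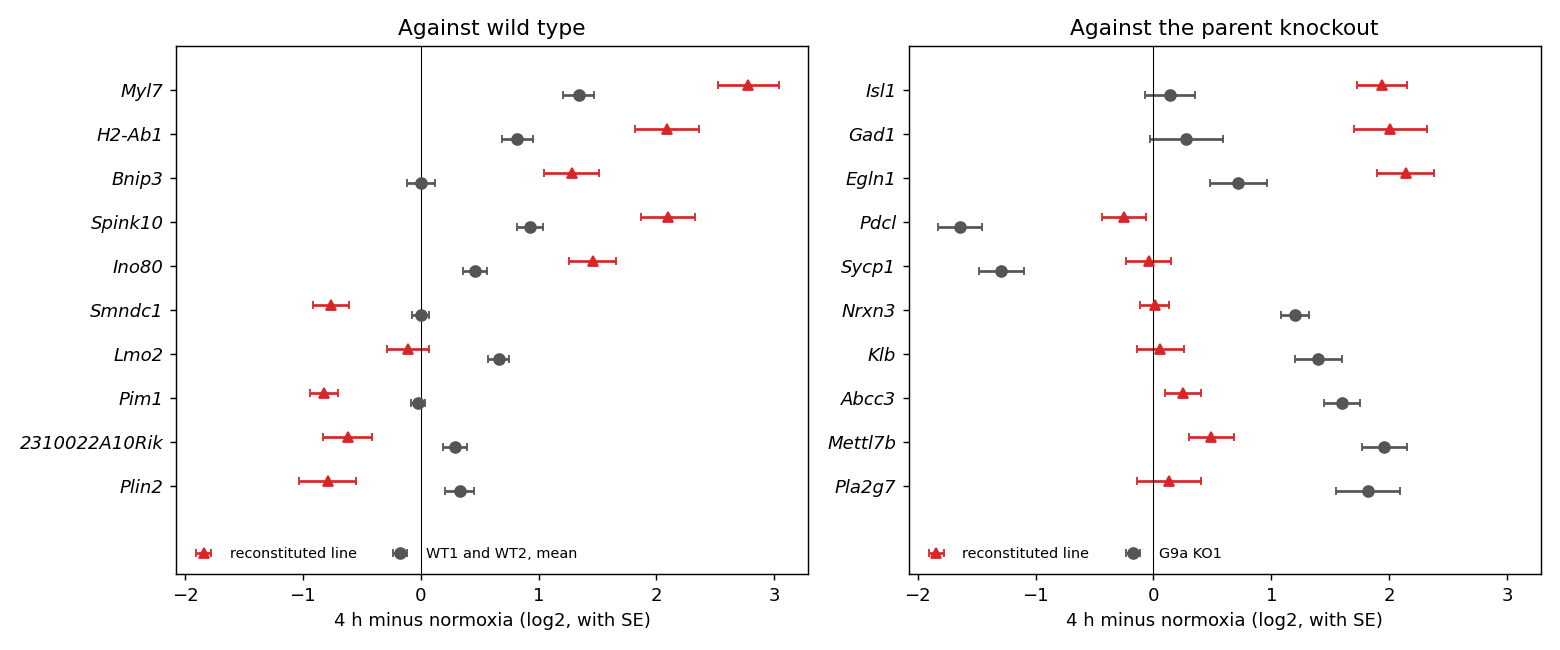
4 h minus normoxia (log2, with SE) of the 5 highest and 5 lowest differences of response among genes called with and without the array-set term, in the reconstituted line (red triangles) and, in grey, in wild type (left) or the parent G9a KO1 (right). On the left the upper 5 genes lie further right in the reconstituted line; on the right Isl1, Gad1 and Egln1 rose in the reconstituted line, while Nrxn3, Klb, Abcc3, Mettl7b and Pla2g7 rose in the parent.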

How the data were processed

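RNA of 63 cultures was measured on Illumina mouse BeadChip arrays, and 6 of them make up the comparison. The values are the intensities of 25697 probes as deposited by the authors, on a linear scale with a lowest value of 20. BeadStudio is named in the submitters' processing notes without a version, and the sources used here give no steps of background correction or scaling. A companion table of 126 columns named by chip and position was not used, since no label ties a column to a sample.

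Intensities were quantile normalized on the log2 scale with limma 3.58.1 in R 4.3.3, and values under 4.32 were set to it. The 12757 probes above that floor in every culture of 1 or more groups of line and exposure were kept, and of several probes for a gene the one of highest average was taken, giving 8742 genes. Of the probes, 23978 have 1 gene symbol, 0 several and 1719 none, by the platform annotation, and 23962 matched the reference by Entrez identifier. The fit (lmFit, eBayes) holds a mean per line and exposure, a linear density term and array set as a fixed term, with 36 residual degrees of freedom and Benjamini-Hochberg adjustment over all genes. Array sets were read from steps in the array totals in the order of deposit, not from a label. The script was tested on simulated data. The number of arrays limits the precision.

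Deviations of cultures of the same density, by the density labels, correlated weakly between normoxia and 4 h (0.13, 0.15 and 0.18 at densities 2, 4 and 6). Between 4 h and 24 h the values were 0.21, 0.06 and 0.23. No correlation between different densities is set beside them. Densities were treated as pairs in an alternative over all 63 arrays.

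Genes are named by rule: Ehmt2 and Kdm3a, the 12 highest and 12 lowest differences called with and without the array-set term with groups apart, up to 4 called members of each list, 5 in each direction for each difference of response, called with and without that term, up to 5 in each direction at the floor in 1 group, and 3 on either side of the threshold. Further list members are named after their values were seen. The comparison, the lists and the tests were chosen with earlier results of these data known. Lists were described by counts and medians, with no test. Promoters came from the RefSeq table of GRCm38.p6, where 7155 of the tested genes had an entry; the coordinates are those of that table. Alternatives were other scalings, filters, probe summaries, treatments of density and array set, and leaving out cultures.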

Additional observations from a re-analysis of the deposited data

Results flagged for a closer look

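Responses of the reconstituted line that differed from those of another line are listed with the difference of the log2 responses, each past an adjusted p of 0.05 in an interaction contrast of the limma fit. Against the 2 wild-type lines 82 genes differed. Among those also called without the array-set term, the highest were Myl7 (1.44), H2-Ab1 (1.28), Bnip3 (1.28), Spink10 (1.17) and Ino80 (1.00). The lowest were Smndc1 (-0.76), Lmo2 (-0.78), Pim1 (-0.80), 2310022A10Rik (-0.91) and Plin2 (-1.12). In the normoxia and 4 h cultures of both wild-type lines Smndc1 was at the floor throughout, and Pim1 read 4.32 to 4.47. A fall of these 2 genes could not be seen in wild type. Lmo2 did not pass in the reconstituted line itself (-0.11) and responded by 0.66 in wild type. Plin2, a coat protein of lipid droplets, read 5.43, 5.40 and 5.28 in normoxia and 4.32, 4.38 and 4.50 at 4 h in the reconstituted line, and responded by 0.33 in wild type.

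Against the parent G9a KO1 57 genes differed, with each response resting on 1 culture of 1 arm in its array set. Among those also called without the array-set term, the highest were Isl1 (1.80), Gad1 (1.73), Egln1 (1.42), Pdcl (1.39) and Sycp1 (1.25). The lowest were Nrxn3 (-1.19), Klb (-1.33), Abcc3 (-1.35), Mettl7b (-1.47) and Pla2g7 (-1.69). Sycp1, a protein of meiotic chromosomes, responded by -1.29 in the parent and -0.04 here. In the reconstituted line Sycp1 read 4.46, 4.32 and 4.32 in normoxia and 4.32 in all 4 h cultures. At that floor a fall could not be seen, so the 2 responses cannot be compared. Pla2g7, a secreted phospholipase, responded by 1.82 in the parent and 0.13 here. Groups of 3 cultures are too small for a search for outlying cultures, and no other signal outside the comparisons was looked for.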

How the results depend on the processing

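The number of genes called in the 4 h response was 1413. It was 3274 without the array-set term, 374 with the 9 arrays of the line alone, 230 within the array set of the 4 h cultures, and 187 with density as a replicate block over the 9 arrays with array set; the fits of the line alone have few residual degrees of freedom. The other alternatives gave 1084 to 1544 calls, and leaving out 1 culture gave 1231 to 1391. Pairing by density over the 9 arrays without array set gave 1184 calls and over all 63 arrays, chosen after seeing the data, 1212, of which 1043 were among the main ones. The fit without normoxia replicate 3 could not be made with the array-set term. Against wild type the count of 82 (39 higher, 43 lower) became 1304 without the array-set term, 143 with probes above the floor on at least 1 array, 0 by limma with probes above it on all arrays (581 at an unadjusted p under 0.05) and, as chosen after seeing the data, 51 without WT2; the split was 42 and 30 with deposited values not scaled further and 43 and 24 with median centring, and leaving out 1 culture gave 70 to 107, and pairing over 63 arrays 84 (51 shared). Against the parent the 57 became 1819, 130 and 2 under the first 3 of these and 37 without the density term, leaving out 1 culture gave 48 to 66, and pairing over 63 arrays 56 (32 shared). Leaving out the array of G9a KO2 that stood apart, chosen after seeing the data, gave 1410, 82 and 57 calls (1386, 80 and 55 shared). The cause of these shifts was not tested. Among 131 named genes, 43 kept their side of the threshold with density as a replicate block over 9 arrays with array set and 88 did not, 111 kept it when paired over all 63 arrays, and 109 kept it without the array-set term. Aurka turned to 0.05 and Sesn2 to 0.00 without the array-set term and with density as a replicate block over 9 arrays without array set. Without the array-set term more list members were called: 8 JmjC genes higher and 3 lower, 5 and 1 of H3K9 methylation, 7 and 11 of DNA replication, 8 and 5 of ribosome biogenesis, 7 and 1 chaperones, 6 and 2 collagen, 6 and 1 glycogen, 7 and 1 mitochondrial, 4 and 0 mesoderm, 6 and 0 endoderm and 3 and 0 feeder genes. Values at the floor give bounds only.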
